A study of Mus musculus with 2 samples.

Results

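The miR-34 and miR-449 family and the miR-204 and miR-211 family comprise 8 microRNA genes in mouse: Mir34a, Mir34b, Mir34c, Mir449a, Mir449b, Mir449c, Mir204 and Mir211. They were taken by gene symbol from the 2202 annotated microRNA genes of the tables. Small RNA was sequenced in 2 libraries of adult male hippocampal tissue, labelled as a hippocampal layer, from mice of 8 to 10 months whose strain is given as 5xFAD/CAST. Both libraries belong to 1 group without a control, and the labels tie 2 tissue records to 1 donor record, so it is not settled whether they came from separate animals. Every p-value below therefore compares these 2 libraries only, and their difference may be technical. Those of the exact binomial test are set against counting error alone. They depend on the number of reads as well as on the size of the difference. 5xFAD mice, used to model Alzheimer disease, carry transgenes driven in neurons by a Thy1 promoter, and CAST mice derive from the wild. The labels do not state whether the tissue carried the transgenes.

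A microRNA is cut from a hairpin precursor and represses messenger RNAs that pair with its seed, the bases near its 5′ end. The miR-34 and miR-449 family is encoded at separate loci. Mir34b and Mir34c form 1 cluster, the Mir449 genes form another in the Cdc20b gene, and both clusters are known for high expression in multiciliated cells, such as ependyma and airway epithelium, where they promote the formation of cilia. Mir34a is expressed more broadly and, like the Mir34b and Mir34c cluster, is a known target of the tumour suppressor p53. In the hippocampus miR-34c has been studied in connection with memory and the deacetylase Sirt1. Mir204 and Mir211 lie in introns of the channel genes Trpm3 and Trpm1. miR-204 is known as a microRNA of choroid plexus and retinal pigment epithelium, and miR-211 as one of pigment cells.

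The mature sequences show what the counts of each family have in common. RefSeq (GRCm38.p6) gave 13 mature entries for 7 of the 8 genes. Mir449b and miR-34c-5p are named only. The first set is shown because it carries each family's seed, bases 2 to 8 in capitals, 5′ to 3′.
miR-34a-5p: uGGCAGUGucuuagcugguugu
miR-34b-5p: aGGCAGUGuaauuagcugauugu
miR-449a-5p: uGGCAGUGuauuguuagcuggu
miR-449c-5p: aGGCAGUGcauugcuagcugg
miR-204-5p: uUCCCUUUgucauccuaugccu
miR-211-5p: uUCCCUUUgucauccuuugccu
The 3′ arms of the Mir34b and Mir34c cluster are shown because they share a seed of their own.
miR-34b-3p: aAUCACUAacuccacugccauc
miR-34c-3p: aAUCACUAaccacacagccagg

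No gene outside the family held the seed GGCAGUG among the 1738 mature entries of the table. The seed of miR-204-5p and miR-211-5p occurred in 1 other gene, Mir7670, which had 0 reads in each library. miR-204-5p and miR-211-5p were identical at 21 of 22 positions and differed by A17U, counted from the 5′ end, with the base of miR-204 first. All these comparisons run position by position from the 5′ end without gaps, so an extra base in 1 sequence lowers the count. miR-449a-5p and miR-449c-5p were identical at 18 of 21 positions. miR-34a-5p matched miR-449a-5p at 15 of 22 positions, the first 9 among them. miR-34b-3p and miR-34c-3p shared their first 10 bases and 17 of 22 positions in all. Counts are per hairpin gene, so reads of the 5′ and 3′ arms are summed and cannot be told apart.

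The hairpins lay at 5 places in the genome (mm10). Mir34a (ENSMUSG00000065493.1) was at chromosome 4, 150068454 to 150068555, in an exon of Gm37795, an unclassified transcript on the same strand. Mir34b (ENSMUSG00000065492.1; chromosome 9, 51103562 to 51103645) and Mir34c (ENSMUSG00000065587.1; chromosome 9, 51103034 to 51103110) were 451 bases apart, opposite an intron of Btg4. Mir449c (ENSMUSG00000076146.1; chromosome 13, 113035983 to 113036091), Mir449b (ENSMUSG00000078027.1; 113037419 to 113037498) and Mir449a (ENSMUSG00000065575.1; 113037534 to 113037624) lay in an intron of Cdc20b, on its strand, with 1327 and 35 bases between them. Mir204 (ENSMUSG00000065507.3; chromosome 19, 22750605 to 22750672) lay in an intron of Trpm3. Mir211 (ENSMUSG00000065585.1; chromosome 7, 64205806 to 64205911) lay in an intron of Trpm1. None of the 8 hairpins shared 20 bases with another microRNA gene. The longest stretch in common was 17 bases, between Mir204 and Mir211, and at the other 6 genes it was 11 to 14 bases.

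The depth was 3421977 reads assigned to microRNA genes in replicate 1 and 2820468 in replicate 2, which were 35.2% and 33.0% of all reads. Levels are given in CPM, the count scaled to 1e6 assigned reads. With 0 reads the upper limit, taken as 3 reads, is 0.877 CPM in replicate 1 and 1.06 CPM in replicate 2. Another 41.6% and 38.2% mapped to more than 1 place and 16.6% and 22.6% did not map, and neither kind carries a gene name. Shares and ranks hold among assigned reads only. A read stands for 1 mature microRNA, so counts were not divided by length, and unequal capture of different sequences was not tested. Of the 8 genes, 6 had at least 10 reads in both libraries and are called detected, as were 389 of all 2202 genes.

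Mir34c was the most abundant member by mean, followed by Mir204 and Mir34a. Mir34c had 6997 reads in replicate 1 and 2114 in replicate 2, or 2045 and 750 CPM (mean 1397 ± 916 CPM, SD, n = 2). Mir204 had 4214 and 2084 reads, or 1231 and 739 CPM (985 ± 348 CPM). Mir34a had 2128 and 2928 reads, or 622 and 1038 CPM (830 ± 294 CPM). The 3 ranges overlapped, so the order of these means was within the spread between the libraries. In replicate 1 the order was Mir34c, Mir204, Mir34a, and in replicate 2 Mir34a led, with Mir34c and Mir204 almost equal.

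A gap separated these 3 genes from the rest: the lowest of them stood 8.48-fold above Mir211 in replicate 1 and 9.69-fold above it in replicate 2. Mir211 had 251 and 215 reads, or 73.3 and 76.2 CPM (74.8 ± 2.04 CPM). Mir449a had 109 and 139 reads, or 31.9 and 49.3 CPM (40.6 ± 12.3 CPM). Mir34b had 117 and 68 reads, or 34.2 and 24.1 CPM (29.2 ± 7.13 CPM). Mir211 lay above the ranges of Mir449a and Mir34b in both libraries, while those of Mir449a and Mir34b overlapped. Mir449c had 2 reads in replicate 1 and 1 in replicate 2. Mir449b had 0 reads in both, which allows up to 0.877 and 1.06 CPM. By mean CPM among the 389 detected genes, Mir34c ranked 79, Mir204 92, Mir34a 102, Mir211 210, Mir449a 247 and Mir34b 264.

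**Figure D1:**
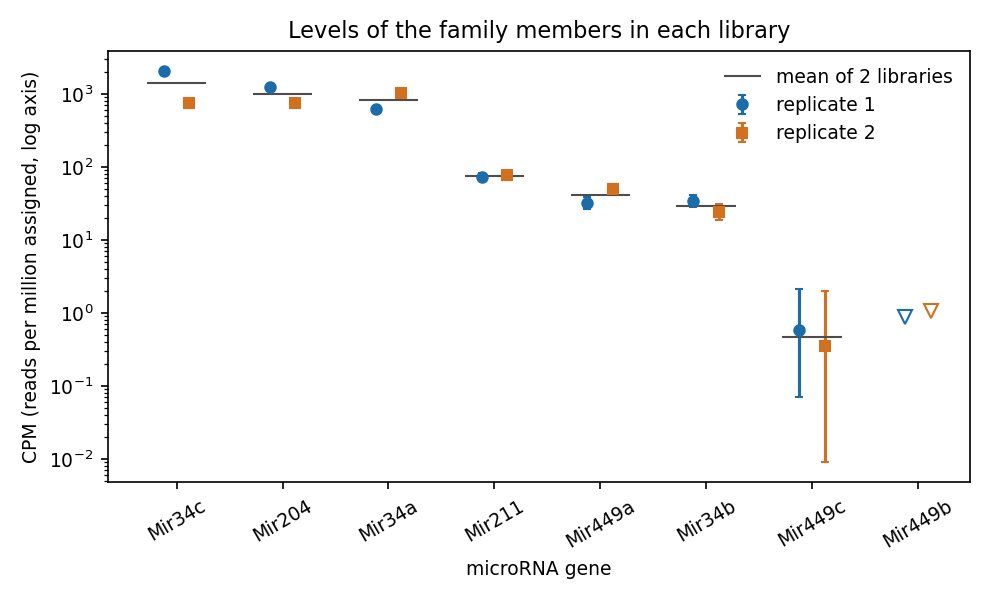
Level of each of the 8 genes in CPM on a log axis, ordered by mean; circles are replicate 1, squares replicate 2, bars exact 95% counting intervals and lines the mean of 2 libraries. Open triangles mark the level of 3 reads, 0.877 and 1.06 CPM, for Mir449b, which had 0 reads; Mir34c, Mir204 and Mir34a lie between 622 and 2045 CPM, and Mir211, Mir449a and Mir34b between 24.1 and 76.2 CPM.

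The miR-34 and miR-449 family together took 0.273% of assigned reads in replicate 1 (exact Clopper-Pearson 95% limits 0.268 to 0.279) and 0.186% in replicate 2 (0.181 to 0.191). The miR-204 and miR-211 family took 0.130% (0.127 to 0.134) and 0.0815% (0.0782 to 0.0849). The summed share of each family was thus lower in replicate 2, beyond counting error. Not every member was lower: Mir34a and Mir449a were higher in replicate 2, and Mir211 was not called. These intervals cover counting error only, since the reads carry no molecular identifiers.

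The gene that led the miR-34 and miR-449 family differed between the libraries. Mir34c held 74.8% of the family's reads in replicate 1 (exact 95% limits 73.9 to 75.7) and 40.3% in replicate 2 (38.9 to 41.6). Mir34a held 22.8% (21.9 to 23.6) and 55.8% (54.4 to 57.1). Mir34b stayed near the same small share, with 1.25% (1.04 to 1.50) and 1.30% (1.01 to 1.64), and Mir449a held 1.17% (0.958 to 1.40) and 2.65% (2.23 to 3.12). Shares of 1 family do not depend on the scaling of the libraries, but a lower share of 1 gene raises those of the others. In the miR-204 and miR-211 family, Mir204 held 94.4% of reads in replicate 1 and 90.6% in replicate 2.

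**Figure D2:**
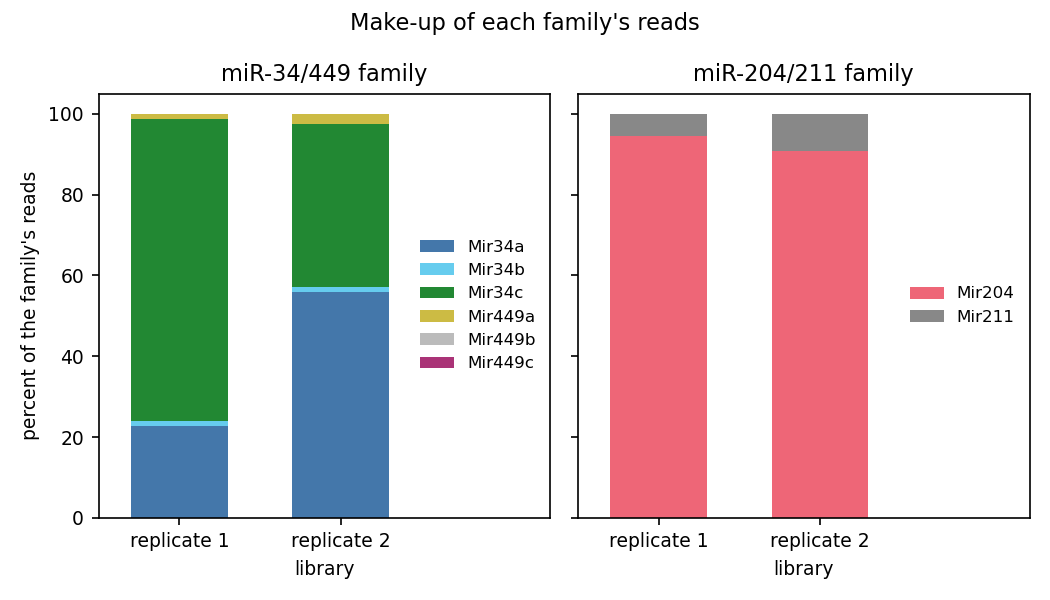
Stacked bars of the percent of each family's reads held by each gene, for replicate 1 and replicate 2, with the miR-34 and miR-449 family on the left and the miR-204 and miR-211 family on the right. Mir34c fills 74.8% of the first bar and 40.3% of the second, and Mir34a 22.8% and 55.8%; Mir204 holds 94.4% and 90.6% of its family.

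Within a library, ratios of reads compare genes free of scaling. There were 0.304 reads of Mir34a per read of Mir34c in replicate 1 (exact 95% limits 0.290 to 0.319) and 1.39 in replicate 2 (1.31 to 1.47), a 4.55-fold change of the ratio (4.23 to 4.91). Mir449a per Mir34c went from 0.0156 (0.0128 to 0.0188) to 0.0658 (0.0550 to 0.0781), a 4.22-fold change (3.24 to 5.50). In these 2 libraries the reads of Mir449a did not keep step with those of Mir34c, beyond counting error alone. What lies behind this was not tested. A pair chosen after the values were seen, Mir449a per Mir34a, had ratios of 0.0512 and 0.0475, a change of 0.927-fold (0.711 to 1.21), an interval that includes no change.

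Genes of 1 cluster also gave very unequal reads. Mir34c had 59.8 reads for each read of its neighbour Mir34b in replicate 1 (exact 95% limits 49.8 to 72.4) and 31.1 in replicate 2 (24.4 to 40.2), so the ratio of Mir34b to Mir34c changed 1.92-fold (1.40 to 2.63). In the Cdc20b intron, nearly all reads fell on Mir449a. Mir449c had 0.0183 reads per read of Mir449a in replicate 1 (0.00219 to 0.0679) and 0.00719 in replicate 2 (0.000181 to 0.0407), and these intervals overlap. For Mir449b, with 0 reads, 3 reads would be 0.0275 and 0.0216 per read of Mir449a. Mir211 had 0.0596 reads per read of Mir204 in replicate 1 (0.0522 to 0.0677) and 0.103 in replicate 2 (0.0892 to 0.119), a 1.73-fold change (1.43 to 2.10).

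Between the libraries, 5 of the 6 detected members differed beyond counting error: 2 were higher and 3 lower in replicate 2. The test was a two-sided exact binomial test against library sizes scaled by TMM, adjusted by Benjamini-Hochberg over the 389 detected genes and a threshold of 0.05. It called 67.6% of all genes tested, 33.9% higher and 33.7% lower, so being called is common in these libraries. The median log2 ratio of replicate 2 over replicate 1 was -0.32 over the 6 members and 0.053 over all genes tested. A difference of at least 2-fold was seen in 1 member, Mir34c, and in 88 genes (22.6%) overall. With the spread between the 2 libraries as the error (edgeR exact test with the common dispersion), 0 of the 6 members passed and 0 had an unadjusted p under 0.05, while 2 of 389 genes (0.514%) passed and 23 had an unadjusted p under 0.05. That error includes the difference under test.

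Mir34c had the largest difference of the 6, being 2.92-fold lower in replicate 2 (exact 95% interval 2.78 to 3.07; log2 ratio -1.55), the rank of 22 from the lowest among 389 genes; its p-value was smaller than the computation could return. Mir204 was 1.78-fold lower (1.69 to 1.88; log2 ratio -0.84; exact binomial test, adjusted p = 1.69e-108). Mir34b was 1.52-fold lower (1.12 to 2.08; log2 ratio -0.60; exact binomial test, adjusted p = 0.0101). Mir34a was 1.56-fold higher in replicate 2 (1.47 to 1.65; log2 ratio 0.64; exact binomial test, adjusted p = 7.83e-55). Mir449a was 1.44-fold higher (1.12 to 1.87; log2 ratio 0.53; exact binomial test, adjusted p = 0.00694). Mir211 gave no call (log2 ratio -0.043, interval -0.31 to 0.23; exact binomial test, adjusted p = 0.827; log2 ratio 0.056 with library totals in place of TMM).

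**Figure D3:**
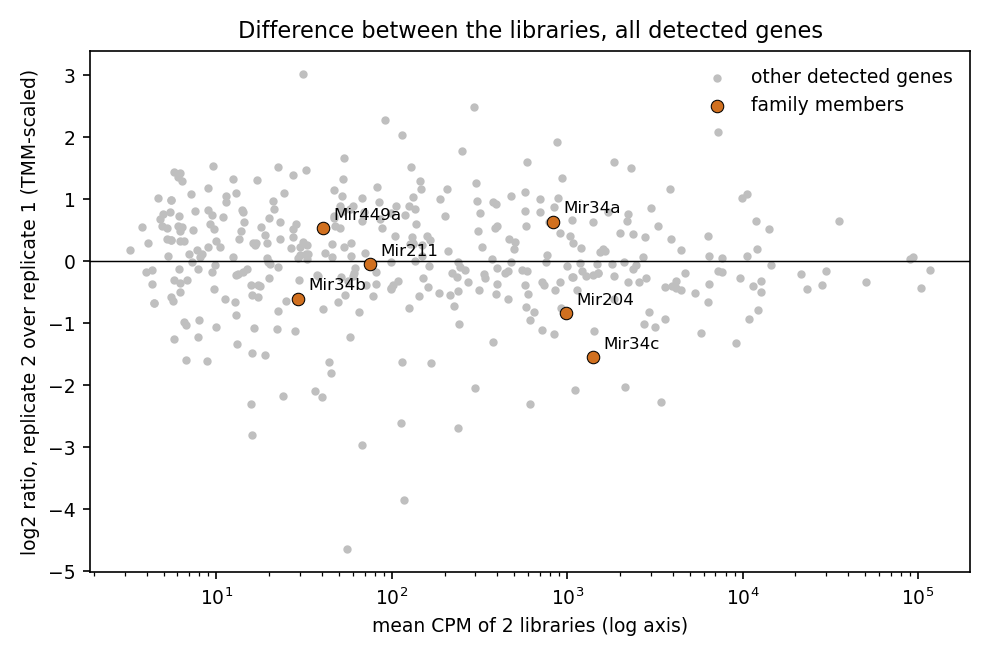
Log2 ratio of replicate 2 over replicate 1 on TMM-scaled counts against mean CPM on a log axis, each point 1 of the 389 detected genes, with the 6 detected members in colour. Mir34c lies at -1.55, Mir204 at -0.84 and Mir34b at -0.60, Mir34a and Mir449a lie above 0, and all 6 lie inside the cloud of other genes.

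Hairpin GC content moves with the difference between these libraries: Spearman's rho of GC content and log2 ratio was 0.27 across 389 detected genes, a description, since genes are no replicates. Mir34c had the lowest hairpin GC content of the 8 members, 40.3%, against a median of 52.1% over detected genes. Mir34a had 44.1%, Mir34b 47.6%, Mir204 48.5%, Mir449a 50.5%, Mir449c 52.3%, Mir211 57.5% and Mir449b 61.2%. Reads come from mature sequences, whose GC content can differ from that of the hairpin. It was 50% for miR-34c-3p, and miR-34c-5p had no entry. With a linear GC trend removed, the log2 ratio was -1.28 for Mir34c and -0.76 for Mir204 and 0.82 for Mir34a. All 5 calls held with this correction, under which 66.8% of all genes tested were called.

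Reads on the opposite strand fell at 1 of the 8 members, Mir34b. It had 9 opposite-strand reads against 117 on its own strand in replicate 1, or 7.14% of the reads of both strands (exact 95% interval 3.32 to 13.1), and 2 against 68, or 2.86% (0.348 to 9.94), in replicate 2. The intervals overlap. Mir34b ranked 5 among microRNA genes that overlap no other microRNA gene by such reads, of which there were 125 and 65 in all. Mir34c, with far more reads 451 bases away, had 0.

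Of the detected microRNAs in introns of Htr2c, 3 of 4 were lower in replicate 2, where 33.7% of all genes tested were. Htr2c encodes a serotonin receptor that is abundant in choroid plexus epithelium and also present in neurons. Of 6 listed genes in its introns, 5 were matched and 4 detected, and the median log2 ratio of these 4 was -1.59 against 0.053 over all genes. Mir1298 had 1611 and 346 reads (log2 ratio -2.04), Mir448 had 133 and 26 (-2.17) and Mir1264 had 129 and 52 (-1.13). Mir764 had 50 and 39 reads (-0.18) and was not called. Mir1912, below the minimum, had 14 and 0 reads. The list took 0.0566% and 0.0164% of assigned reads. Its genes lie in 1 host gene and are not separate observations. This list and the epithelial list below were chosen with earlier results of these data known.

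Epithelial microRNAs outside these families were lower in replicate 2, with log2 ratios from -3.84 to -1.65 beside the -1.55 of Mir34c. Of the 10 listed genes (the miR-200 genes, the miR-183 cluster, Mir203 and Mir205), 7 were detected and all 7 were lower, where 33.7% of all genes tested were. Genes of 1 cluster, such as the miR-183 cluster, are not separate observations. The median log2 ratio of the 7 was -2.30, and the list took 0.0964% and 0.0198% of assigned reads. Mir203, a microRNA of stratified epithelia, had 854 and 241 reads (log2 ratio -1.65), and Mir183, of sensory epithelia, had 748 and 46 (-3.84). Mir200c had 653 and 95 (-2.60), Mir182 had 406 and 46 (-2.96) and Mir429 had 237 and 60 (-1.80). Mir200b had 222 and 43 (-2.19) and Mir200a had 89 and 16 (-2.30). None of the 10 was at 0 in both libraries. Mir34c, Mir204 and Mir34b were lower along with this list, while Mir34a and Mir449a were higher and Mir211 was not called. The part of choroid plexus, ependyma or other epithelium in these values was not tested. In such bulk tissue, fewer cells of a type and less RNA per cell cannot be told apart.

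The p53-responsive list outside miR-34 did not move one way. Of its 9 genes 6 were detected, 3 higher and 3 lower in replicate 2, around a median log2 ratio of -0.040. Among all genes tested 33.9% were higher and 33.7% lower. The higher genes were Mir15a (949 and 2540 reads, log2 ratio 1.60), Mir194-2 (27 and 51, 1.10) and Mir16-1 (131 and 168 CPM, 0.26). The lower genes were Mir143 (43770 and 15437 reads, -1.32), Mir145a (3452 and 620, -2.30) and Mir107 (9488 and 6629, -0.34). Mir194-2, Mir16-1 and Mir107 share sequence with another gene and are less certain. Mir143 and Mir145a are also the mural list, the microRNAs of smooth muscle and pericytes, which took 1.38% and 0.569% of assigned reads. Mir215 was at 0 in both libraries.

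Lists of the other cell types in hippocampus were also present. Their counts of higher and lower genes stand beside 33.9% higher and 33.7% lower among all genes tested. The neuron-enriched list, led by Mir132, had 12 of 15 genes detected and took 3.41% and 3.59% of assigned reads. In replicate 2, 9 of its genes were higher and 3 lower, and Mir124a-2 and Mir124a-3 were at 0. The 3 lower genes were Mir132 itself (log2 ratio -0.32), Mir128-1 (-0.16) and Mir128-2 (-0.18), so the list did not move one way. All Mir124a genes, most of the neuron-enriched list and every astrocyte-rich gene but Mir29a share sequence with a copy. Reads that map to more than 1 place were dropped, so these shares are uncertain and the zeros do not show that miR-124 was absent. The astrocyte-rich list, led by Mir23b, had 7 of 7 detected and took 5.35% and 4.51%. Of its genes 5 were higher and 2, Mir23a and Mir23b, lower in replicate 2, around a median log2 ratio of 0.20. The oligodendrocyte list, led by Mir338 in mean CPM, had 2 of 3 detected (0.503% and 0.667%), 1 higher and 1 lower. Mir338 was higher in replicate 2 (7014 and 11281 reads). Mir219a-2, which shares sequence with another gene, was lower (10187 and 7507 reads). The microglia and leukocyte list, led by Mir342, had 7 of 8 detected (0.521% and 0.449%), with 5 lower and 2 not called. The endothelial list had 1 of 2 detected (0.787% and 0.747%), Mir126a, which was lower (log2 ratio -0.18). The erythroid list, led by Mir451a, had 3 of 3 detected (0.00476% and 0.00599%), with 1 higher and 2 not called. The multiciliated and ependymal list, which holds members alone, had 3 of 5 detected, 1 higher and 2 lower. This list took 0.211% and 0.0823%, nearly all of it Mir34c, with Mir449b at 0. The part of these cell types in the members' values was not tested.

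**Figure D4:**
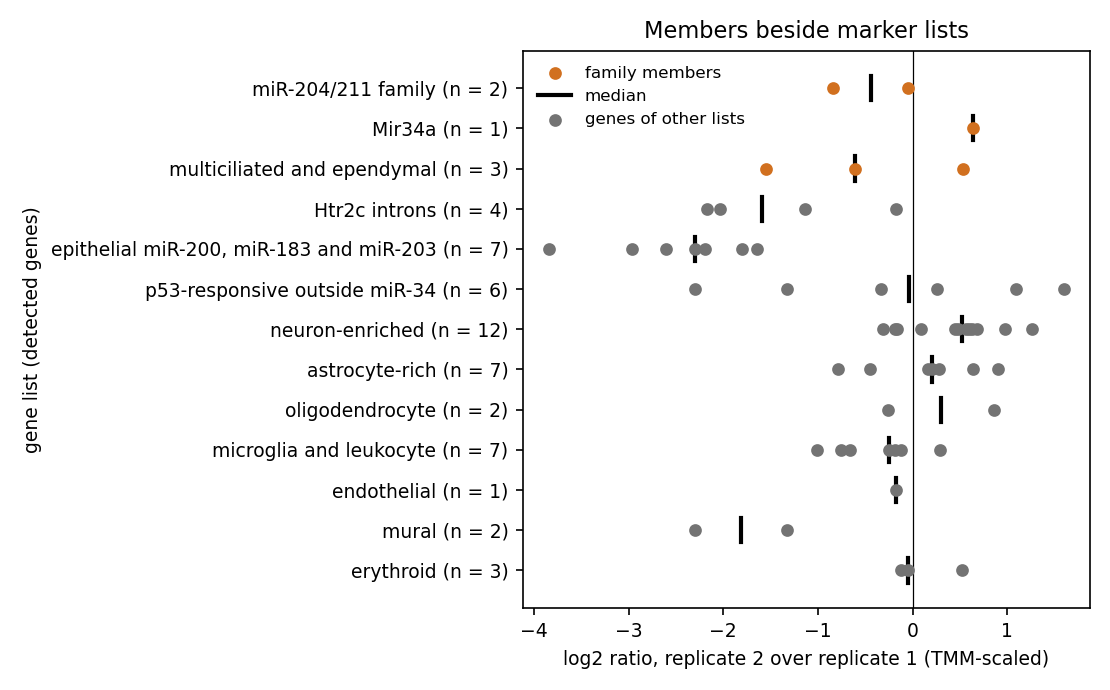
Log2 ratio of replicate 2 over replicate 1 for the detected genes of each list, each point 1 gene and each black line the list's median; family members are in colour. The Htr2c list (median -1.59), the epithelial list (median -2.30) and the mural genes lie to the left, the neuron-enriched list has a median of 0.52, and the members lie on both sides.

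The genes nearest to 3 of the members were found by the Euclidean distance of log2(CPM + 1) over the 2 libraries among detected genes. For Mir34c they were Mir21a (distance 0.33; 6492 and 2627 reads), known from reactive glia and many other cells, then Mir140 (0.76; 11567 and 2497 reads), a cartilage microRNA, and Mir376a (0.78; 6014 and 1257 reads). For Mir204 they were Mir150 (0.13; 3868 and 2022 reads), a lymphocyte microRNA, Mir540 (0.35) and Mir125b-1 (0.37, which shares sequence with another gene). For Mir34a they were Mir129-2 (0.093; 2038 and 2791 reads; shares sequence), a neuronal microRNA, Mir667 (0.17) and Mir154 (0.25). With 2 libraries this distance combines the level and the difference between the libraries, so a like level and direction follow from the way these genes were picked.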

How the data were processed

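MicroRNA-seq was measured in 2 libraries of 1 group. Raw counts of reads for each microRNA gene were deposited by the authors in 3 columns (either strand, the gene's strand, the opposite strand), on mm10 with GENCODE M21 per the deposited text notes. The aligner, counter and trimming were not given in the sources used here. The 4 rows that name no gene held 64.8% and 67.0% of reads and were left out. The gene's-strand column was used. All 2202 gene IDs matched M21, which gave symbols, positions and hairpins; mature sequences came from RefSeq. CPM and percent used assigned reads as the library size. With 1 group no quasi-likelihood contrast exists, so the counts were compared by exact binomial tests (scipy 1.17.1) on TMM sizes from edgeR 4.0.16 (R 4.3.3). The test was tried on simulated counts that held counting error and set changes, without other spread between libraries. The simulation therefore cannot show how the test behaves with the spread of these 2 libraries. Changes of a ratio are conditional odds ratios with exact 95% intervals. Alternatives were DESeq2 1.42.0 size factors, library totals, other minimum counts, the strandless column, a GC trend, all reads as library size, single libraries and the edgeR exact test. The members and lists were chosen with earlier results of these data known. All 8 members are named, with the 3 genes nearest to Mir34c, Mir204 and Mir34a, all detected genes of the Htr2c, epithelial and p53 lists and the top gene of other lists.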

Additional observations from a re-analysis of the deposited data

Results flagged for a closer look

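Opposite-strand reads, which the comparisons of levels do not use, reached 9 at Mir34b in replicate 1, above the 3 reads that a count of 0 allows. In replicate 2 there were 2. No other member had any.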

How the results depend on the processing

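With the edgeR exact test in place of the binomial test, the count of members called was 0 in place of 5 and that of all genes 2 in place of 263, because the spread between the 2 libraries then enters the error. Under the other 6 alternatives 4 or 5 members were called, 4 where a minimum of 100 reads left 5 tested (Mir34b dropped out). Of all genes tested, 37.3% were called without a minimum count and 86.3% with a minimum of 100 reads. The rest of these alternatives called 66.8% to 69.7%. The 6 detected members, where tested, kept their direction except Mir211. Mir211 reversed to a log2 ratio of 0.056 with library totals (adjusted p = 0.754, exact binomial test). Its adjusted p ranged from 0.276 to 0.932 over the binomial alternatives. Over the same alternatives the log2 ratio of Mir34c ranged from -1.60 to -1.28. With all reads as the library size the miR-34 and miR-449 family took 0.0788% and the miR-204 and miR-211 family 0.0364%, smaller by construction. Single libraries gave 0.186% to 0.273% and 0.0815% to 0.130%. Mir34c is 2045 CPM from replicate 1 alone and 750 CPM from replicate 2 alone. No paired analysis was possible because there is 1 group. Depth limits Mir449b, which had 0 reads and could not be compared, and Mir449c, with 2 and 1 reads, which was tested only without a minimum count and was not called there.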
